A study of Mus musculus with 36 samples.

Results

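The pregranulosa fate genes examined here were 10 genes listed by symbol, namely *Foxl2*, *Wnt4*, *Rspo1*, *Fst*, *Runx1*, *Irx3*, *Bmp2*, *Lhx2*, *Gata4* and *Wt1*, out of 56262 genes listed in the gonad tables and 57126 in the tables of primordial germ cells (PGCs). Pregranulosa cells are the somatic supporting cells of the fetal ovary, the counterpart of Sertoli cells in the testis. In the XX gonad the secreted proteins RSPO1 and WNT4 raise β-catenin signaling, and the forkhead factor FOXL2 and the factor RUNX1 keep the supporting cells on the ovarian path. Germ cells lie next to these cells and receive their ligands.

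The 36 bulk RNA-seq libraries came from mouse fetuses labelled WT, in 12 groups of 3, although those of the PGC groups carried a transgene. There were 6 control groups and 6 exposed to intrauterine hyperglycemia (IUHG), for which dams received streptozotocin, a drug that destroys pancreatic β cells, (120 mg/kg, pregnancy day 3.5) and had a blood glucose over 14 mM at day 6.5. Whole gonads were those of ICR females at E13.5 (embryonic day), with several pairs pooled in each sample. The remaining groups were PGCs sorted for EGFP from pooled fetuses that carried the *Oct4-EGFP* transgene, driven by a promoter active in germ cells, in control and IUHG fetuses alike. They were taken at E12.5 without separation of the sexes, and at E13.5 and E16.5 from females (E13.5F, E16.5F) and males (E13.5M, E16.5M). Any member signal in the PGC libraries therefore stands for transcripts of germ cells and for carried-over somatic RNA together, and in bulk samples fewer cells of a type and less RNA per cell cannot be told apart. Levels are TPM, a transcript abundance with the same total in every library, which is scaled for transcript length. Gonad libraries held 3.89 to 4.95 gigabases of aligned sequence and PGC libraries 3.25 to 8.32. The sources do not say that the 3 samples of a group came from separate litters, so p-values measure only the spread between these samples.

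One gonad library did not match its female label. Control gonad 1 held a summed level of the 4 Y-linked genes of 51.3 TPM, which was 0 in the other 5 gonad libraries. In the same library the 16 Sertoli genes summed to 582 TPM, against 107 to 114 in the others, and 5 fetal Leydig genes to 412 TPM, against 11.0 to 37.7. *Amh*, the Sertoli hormone that removes the Müllerian duct, was at 178 TPM there and at most 1.48 TPM in every other gonad library. Member differences in gonads are therefore given with and without this library. The PGC libraries were rich in 8 pan-germ genes, which summed to between 2639.9 and 9651 TPM, against 546 to 883 TPM in the separately normalized gonad tables.

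The sequences at 2 start sites are shown because their genes had opposite sex differences in control PGCs at E13.5 (*Rspo1* higher in males, *Lhx2* higher in females). Both runs are the 250 bases before the RefSeq start on GRCm38.p6, 5′ to 3′ on the plus strand, with CG dinucleotides in capitals. *Rspo1* covers chr4:124986180-124986429 and *Lhx2* covers chr2:38339031-38339280.
Rspo1: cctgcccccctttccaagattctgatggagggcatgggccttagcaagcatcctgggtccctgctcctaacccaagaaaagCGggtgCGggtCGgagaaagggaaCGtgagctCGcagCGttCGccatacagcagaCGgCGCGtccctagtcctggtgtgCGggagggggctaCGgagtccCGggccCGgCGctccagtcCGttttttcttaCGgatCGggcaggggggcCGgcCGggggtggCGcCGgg
Lhx2: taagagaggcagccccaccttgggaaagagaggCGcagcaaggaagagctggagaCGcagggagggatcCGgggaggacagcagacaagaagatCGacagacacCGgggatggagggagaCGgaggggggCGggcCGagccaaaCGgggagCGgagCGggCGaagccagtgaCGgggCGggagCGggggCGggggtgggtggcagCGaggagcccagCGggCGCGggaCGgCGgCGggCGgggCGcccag
The *Rspo1* window held 22 CG dinucleotides and 66.8% G or C, and the *Lhx2* window held 25 and 72.8%. Over 32851 RefSeq promoters the median was 6.00 CG, with quartiles of 2.00 and 16.0, so both windows lay above the upper quartile. RefSeq promoters were found for 6 of the 10 members, in 8 windows (*Runx1* and *Lhx2* had 2 each). The letters of 4 motifs were sought on both strands, from 250 bases before to 50 bases after each start. GATAAG, the GATA core, was in 7.44% of all promoters, CTTTGA, the TCF/LEF core, in 16.0%, and AAGGTCA, the NR5A1 core, in 4.72%, and none of the 3 was in a member window. TAAACA, the forkhead core, was in 13.4% of all promoters and in 1 member window, the distal *Runx1* start. A match describes letters only.

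To ask whether IUHG touched the ovarian supporting program, the members were first compared in E13.5 female gonads. All 10 were expressed in all 6 gonad libraries. A differentially expressed gene (DEG) in gonads had an adjusted p under 0.05 and a difference of at least 2-fold. None of the members was a DEG by limma, and 3 had an unadjusted p under 0.05. Over all 18150 genes tested, 0.612% were called and 19.9% had an unadjusted p under 0.05. The median log2 fold change of the members was 0.11, against 0.01 over all genes, and went to -0.08 without control gonad 1. The groups did not overlap for 3 members, all higher in IUHG, where 25.8% of all genes did not overlap. Fold changes throughout are IUHG minus control on log2(TPM + 1), which understates those of low genes, and adjusted p-values are limma's with Benjamini-Hochberg adjustment over all genes tested. An exact permutation test of 3 against 3 cannot go below p = 0.1.

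Of the ligands, *Wnt4* (chromosome 4, 137277489 to 137299726, GRCm38) was at 72.4, 78.8 and 87.3 TPM in control and 77.3, 79.2 and 78.9 TPM in IUHG gonads. The IUHG values lay inside the control range, with a log2 fold change of -0.01 (95% interval -0.18 to 0.15, adjusted p = 0.934, n = 3 per group, limma), and of -0.08 without control gonad 1 (adjusted p = 0.548, limma). *Rspo1* (chromosome 4, 124986430 to 125009099), whose product amplifies WNT signals at the receptor, was at 62.3, 83.3 and 79.7 TPM in control and 78.3, 74.7 and 76.7 TPM in IUHG gonads. Its log2 fold change was 0.04 (interval -0.19 to 0.27, adjusted p = 0.873, limma). Control gonad 1 was the lowest library for both ligands. Without it, *Rspo1* was at 81.5 TPM in the 2 remaining controls and 76.6 ± 1.82 TPM (SD, n = 3) in IUHG, a log2 fold change of -0.09 (adjusted p = 0.447, limma), and the groups no longer overlapped.

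*Bmp2* (chromosome 2, 133552159 to 133562885), a BMP ligand that the pregranulosa cells give to germ cells, was at 13.51, 16.44 and 19.44 TPM in control and 20.85, 19.69 and 21.13 TPM in IUHG gonads. All IUHG values were above the controls, by a log2 fold change of 0.32 ± 0.123 (SE) that did not pass the test (adjusted p = 0.203, limma). Without control gonad 1 the difference was 0.19 (adjusted p = 0.353, limma). *Fst* (chromosome 13, 114452290 to 114458951), which encodes the activin antagonist follistatin, was at 38.1, 59.8 and 63.3 TPM in control and 56.3, 62.9 and 55.1 TPM in IUHG gonads. The low value was again control gonad 1, and the log2 fold change went from 0.14 (adjusted p = 0.688) to -0.08 (adjusted p = 0.600, limma) without it.

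Of the transcription factors, *Foxl2* (chromosome 9, 98955288 to 98958543) was at 17.6, 32.1 and 28.4 TPM in control and 27.9, 27.5 and 24.0 TPM in IUHG gonads. The log2 fold change was 0.06 (interval -0.37 to 0.50, adjusted p = 0.891, limma). Without control gonad 1 all IUHG values lay below both controls, with a log2 fold change of -0.19 (adjusted p = 0.356, limma). *Runx1* (chromosome 16, 92601466 to 92826149) was at 18.0, 28.4 and 25.4 TPM in control and 19.1, 19.8 and 21.6 TPM in IUHG gonads. Its log2 fold change was -0.21 (adjusted p = 0.472, limma), and -0.40 without control gonad 1, with no overlap (unadjusted p = 0.00288 and adjusted p = 0.0816, limma). The largest fall among the members in that repeat was this one, and it did not pass the test.

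*Irx3* (chromosome 8, 91798525 to 91802067), an Iroquois factor of the fetal ovary, was at 40.3, 67.7 and 74.2 TPM in control and 70.9, 70.3 and 73.4 TPM in IUHG gonads. Its log2 fold change of 0.28 (adjusted p = 0.463, limma) was 0.01 (adjusted p = 0.930) without control gonad 1. *Lhx2* (chromosome 2, 38339281 to 38369733), a LIM homeobox factor, was the lowest member, at 2.56, 3.89 and 3.75 TPM in control and 4.19, 3.12 and 3.51 TPM in IUHG gonads. The groups overlapped, with a log2 fold change of 0.07 (adjusted p = 0.858) that was -0.07 without control gonad 1 (adjusted p = 0.856, limma).

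*Wt1* and *Gata4* encode factors of the bipotential gonad, used by the supporting cells of both sexes. *Wt1* (chromosome 2, 105126529 to 105173616) was the highest member, at 239, 257 and 259 TPM in control and 296, 309 and 304 TPM in IUHG gonads. All IUHG values were above all controls, with a log2 fold change of 0.27 (interval 0.16 to 0.38) and an adjusted p = 0.0310 (limma), where 2.47% of all genes had an adjusted p under 0.05. It is not a DEG, because the fold was under the threshold. Without control gonad 1 the log2 fold change was 0.23 and the adjusted p = 0.0539 (limma), and over the 6 fits that each left out 1 library the adjusted p ranged from 0.0539 to 0.111. *Gata4* (chromosome 14, 63198922 to 63271692) was at 95.4, 89.9 and 93.9 TPM in control and 112, 105 and 98.8 TPM in IUHG gonads. This was also a separation without a call, with a log2 fold change of 0.18 (adjusted p = 0.152), and of 0.19 (adjusted p = 0.184, limma) without control gonad 1.

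**Figure D1:**
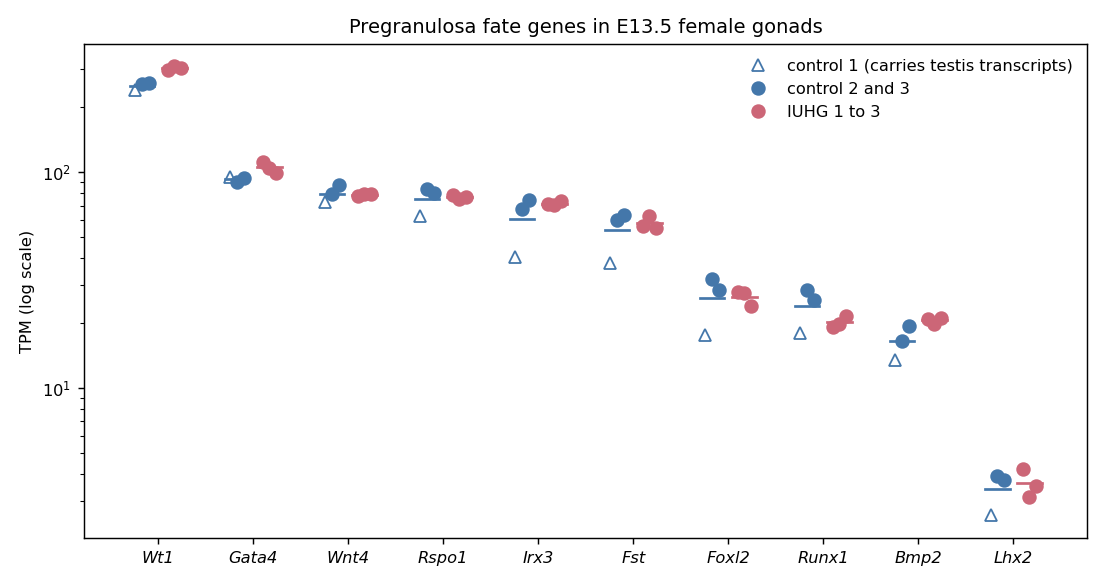
TPM (log scale) of the 10 members in the 3 control and 3 IUHG libraries of E13.5 female gonads, each point a library, bars the group means, and the open triangle control gonad 1. Control gonad 1 is the lowest library for 9 of the 10 members (17.6 TPM for *Foxl2*, 40.3 TPM for *Irx3*), and only *Wt1*, *Gata4* and *Bmp2* have all IUHG points above all control points.

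Control gonad 1 was the lowest library for 9 of the 10 members, the exception being *Gata4*. Leaving it out gave 3 members whose IUHG values all lay above the controls (*Bmp2*, *Gata4* and *Wt1*), 3 whose values all lay below (*Foxl2*, *Rspo1* and *Runx1*) and 4 that overlapped. With those 2 controls, 36.9% of all genes did not overlap between the groups. None of the members was called in that fit, which called 0.607% of 18128 genes. The order of mean TPM in control gonads was *Wt1* (252), *Gata4* (93.1), *Wnt4* (79.5), *Rspo1* (75.1), *Irx3* (60.7), *Fst* (53.7), *Foxl2* (26.0), *Runx1* (23.9), *Bmp2* (16.46) and *Lhx2* (3.40). The ranges of neighbors overlapped from *Wnt4* to *Fst* and from *Foxl2* to *Bmp2*, so the order within those stretches is not resolved. The order of the control means was the same without control gonad 1, from 258 TPM for *Wt1* to 3.82 TPM for *Lhx2*.

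Other cell types moved with condition in the gonads. The 8 pan-germ genes summed to 546 to 622 TPM in control and 713 to 883 TPM in IUHG gonads, with all 8 higher and none called. The groups did not overlap for 4 of the 8, where 25.8% of all genes did not overlap. Without control gonad 1 the controls were at 546 to 566 TPM. The log2 fold changes of the list then ran from 0.05 for *Tdrd1* (adjusted p = 0.912) to 1.07 for *Pou5f1* (adjusted p = 0.00625, limma). Only *Pou5f1*, the pluripotency factor whose promoter drives *Oct4-EGFP* in the PGC fetuses, was called. The 8 interstitial genes summed to 2496 to 2741 TPM in control and 1893 to 2027 TPM in IUHG, and 8 blood and macrophage genes to 13725 to 16994 and 10576 to 12039 TPM. In the blood list the globins *Hbb-bs* and *Hbb-bt* fell by 1.39 and 1.16 on the log2 scale, and by 1.31 and 1.05 without control gonad 1. Of the 8 genes of that list, 6 were lower and 2 higher in IUHG. The globin *Hbb-y* went the other way without control gonad 1, at 0.55 (adjusted p = 0.0319, limma), under the fold threshold. The part of these cell types in the member levels was not tested. Of the 28 other genes of the WNT/β-catenin pathway, 27 were tested and 1 rose, *Porcn*, the acyltransferase that lipid-modifies WNT proteins (14.5, 24.9 and 23.4 TPM in control, 48.1, 38.7 and 40.2 TPM in IUHG, log2 fold change 1.01, adjusted p = 0.0350, limma). Without control gonad 1 *Porcn* was not called, since its log2 fold change was 0.78 (adjusted p = 0.0164, limma). Its most abundant gene, *Ctnnb1*, which encodes β-catenin, was at 706 to 748 TPM in control and 669 to 693 TPM in IUHG gonads (adjusted p = 0.370, and 0.381 without control gonad 1, limma). In the list of 22 other supporting and bipotential gonad genes, 20 were tested and none was called, and likewise none of the 26 tested of 27 genes of the activin, BMP and follistatin pathway. The lists' median log2 fold changes were -0.07, 0.16 and -0.06, against 0.01 over all genes. Without control gonad 1 they were -0.10, 0.14 and -0.08, and no gene of the 3 lists was called. *Mro*, on the Sertoli list, fell by 1.77 on the log2 scale, and by 1.32 without control gonad 1. It was at 19.4 TPM in control gonad 1, at 6.00 and 8.39 TPM in the other controls and at 1.77 to 2.60 TPM in IUHG gonads.

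The same genes were then followed in sorted PGCs, to see how much supporting cell signal each group held. The gonad and PGC tables were made with different library kits and normalized separately, so levels set across them are descriptive. *Foxl2* was listed at 0 in 5 of the 30 PGC libraries, was under 1 TPM in 26 and reached at most 2.67 TPM. As a share of the mean in control gonads, control E13.5F PGCs held 0.597% of *Wt1*, 0.849% of *Gata4*, 1.38% of *Foxl2*, 1.44% of *Runx1*, 4.40% of *Wnt4*, 5.31% of *Fst*, 7.87% of *Rspo1*, 9.15% of *Irx3*, 29.3% of *Bmp2* and 224% of *Lhx2*. These shares were far from equal. *Lhx2* was at 6.23 to 8.32 TPM in control E13.5F PGCs, above every gonad library (2.56 to 4.19 TPM). In control E13.5M PGCs the shares ran from 0.283% of *Foxl2* to 18.5% of *Rspo1* and 20.5% of *Lhx2*. In control E16.5M PGCs *Runx1* was at 32.3%, *Rspo1* at 28.1% and *Lhx2* at 136% of the control gonad level. With control gonad 1 left out, the *Lhx2* shares of E13.5F and E13.5M controls were 199% and 18.2%.

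**Figure D2:**
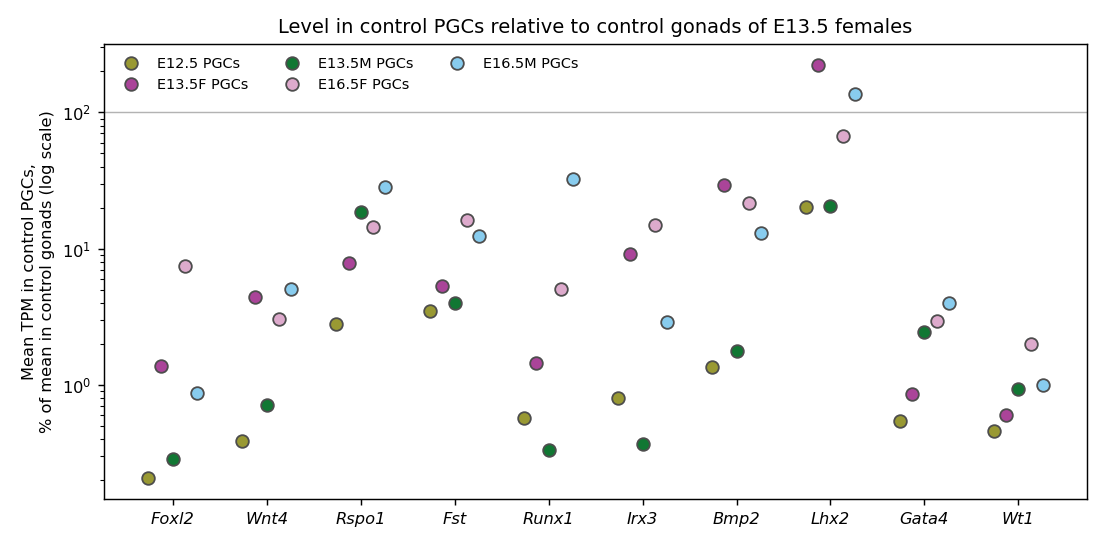
Mean TPM of each member in the 5 control PGC groups as a percentage of its mean in the 3 control gonads (log scale), with the line at 100% marking equal levels. *Wt1* and *Gata4* lie at or under 3.97% in every group, while *Lhx2* reaches 224% in E13.5F and 136% in E16.5M PGCs.

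Ratios between members differed as well. *Rspo1* over *Wnt4* was 0.860 to 1.06 in control gonads, 1.15 to 2.27 in control E13.5F PGCs and 18.2 to 31.8 in control E13.5M PGCs. The mean of *Rspo1* was 2.10 ± 0.731 TPM (SD, n = 3) in E12.5 controls, 13.9 ± 2.07 TPM in E13.5M and 21.1 ± 3.71 TPM in E16.5M controls, and the stages were not tested against each other. *Runx1* was at 7.73 ± 0.770 TPM in E16.5M controls and at most 1.21 ± 0.372 TPM in the other control groups. *Foxl2* was highest in E16.5F controls, at 1.94 ± 0.643 TPM. When the 10 PGC groups were ordered by mean, most neighbors overlapped. All 9 neighboring pairs did for *Wnt4*, 8 of 9 for *Rspo1*, *Bmp2*, *Lhx2*, *Gata4* and *Wt1*, and 7 of 9 for *Foxl2*, *Fst*, *Runx1* and *Irx3*.

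**Figure D3:**
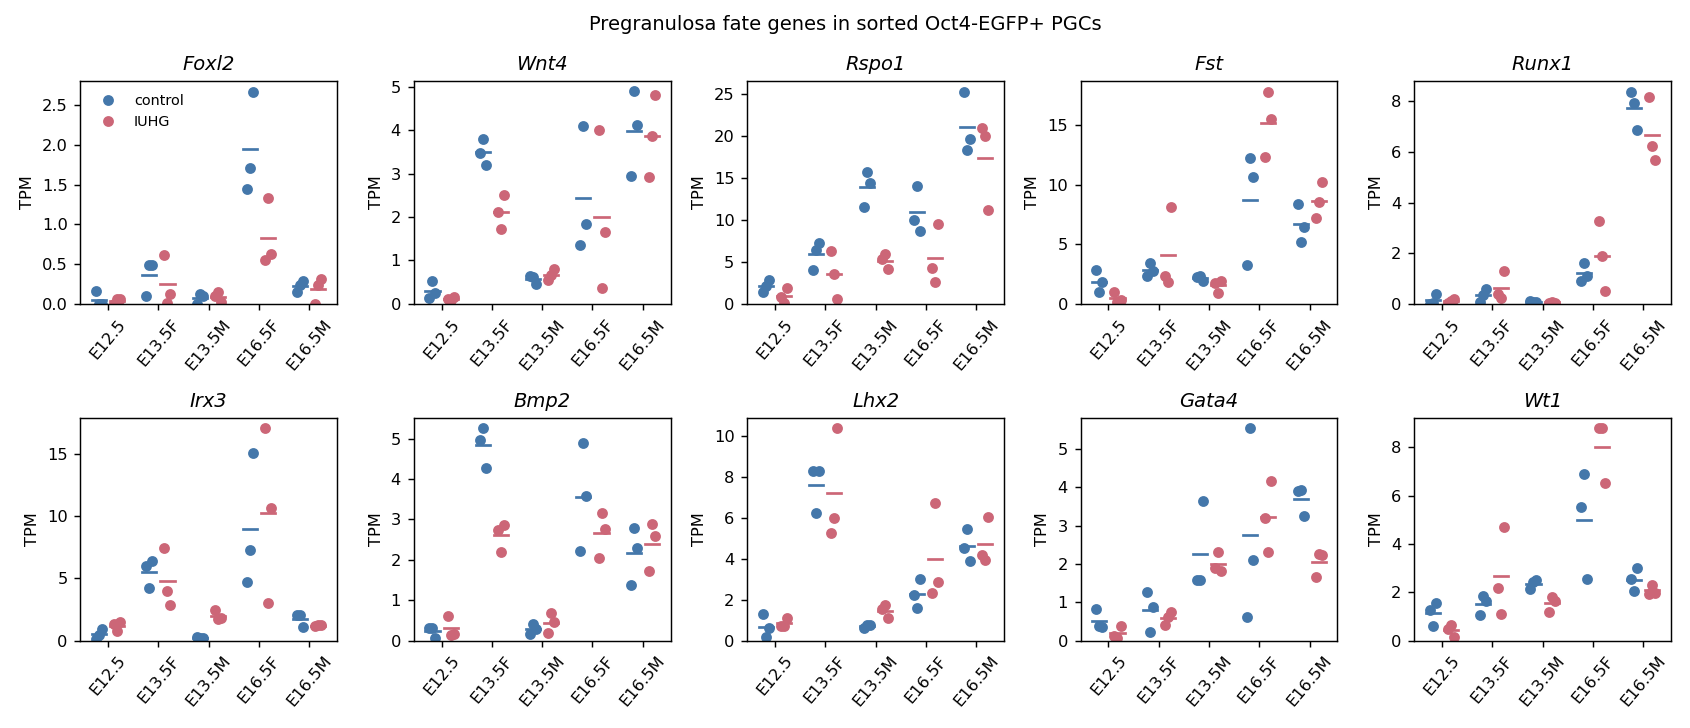
TPM of each member in the 30 PGC libraries by stage and sex (linear axes that differ between panels), each point a library and bars the group means. *Runx1* stands out in E16.5M PGCs (5.67 to 8.38 TPM), and *Rspo1* is lower in IUHG than in control E13.5M PGCs without overlap. *Lhx2* has its highest means in E13.5F PGCs of both conditions (5.27 to 10.4 TPM), with overlap with E16.5 PGCs (up to 6.73 TPM).

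Before the effect of IUHG, the sexes were compared in control PGCs at E13.5. Higher levels were found in females for 4 members, namely *Irx3*, *Lhx2*, *Bmp2* and *Wnt4*, and in males for *Rspo1*. These 5 of 8 members tested passed an adjusted p under 0.01 and a log2 fold change over 1, the thresholds used for PGCs, as did 29.8% of all 15718 genes tested. The mean of 1 TPM needed for a test was reached only in females by *Irx3*, *Lhx2*, *Bmp2* and *Wnt4*, and only in males by *Gata4*. These members were tested only through the sex in which they were higher, so counts out of the 8 are descriptive. *Irx3* was at 6.02, 4.27 and 6.38 TPM in females and 0.261, 0.217 and 0.190 TPM in males, a log2 fold change (female minus male) of 2.41 ± 0.198 (SE, adjusted p = 8.5e-06, limma). *Lhx2* was at 8.32, 6.23 and 8.31 TPM in females and 0.610, 0.736 and 0.744 TPM in males (2.34, adjusted p = 6.4e-06, limma). Neither gene overlapped between the sexes, and nor did any other of the 8 members tested. The share of all genes without overlap was not counted here. An unadjusted p under 0.05 was found for 6 of the 8 members and for 10773 of all 15718 genes (limma).

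*Bmp2* was at 4.97, 5.26 and 4.27 TPM in females and 0.171, 0.416 and 0.292 TPM in males (log2 fold change 2.17, adjusted p = 1e-05, limma). *Wnt4* was at 3.49, 3.81 and 3.21 TPM in females and 0.638, 0.613 and 0.452 TPM in males (1.52, adjusted p = 7.6e-05, limma). The groups were again separate for both. *Rspo1* was at 4.00, 6.45 and 7.29 TPM in females and 11.6, 15.7 and 14.4 TPM in males (-1.13, adjusted p = 0.00132, limma). The *Rspo1* call was lost in 3 other fits, namely without the filter on low TPM (adjusted p = 0.0115), in one fit over all PGC libraries (adjusted p = 0.0221), and without female control 1 (log2 fold change -0.91, under the threshold). *Gata4* (-0.85, adjusted p = 0.0359), *Wt1* (-0.44, adjusted p = 0.0774) and *Fst* (0.29, adjusted p = 0.201, limma) did not pass, and *Foxl2* and *Runx1* were too low to be tested.

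The median gene was 0.28 higher in females on TPM and -0.01 under median-of-ratios scaling, where the same 5 members were called, with *Irx3* at 2.22, *Lhx2* at 2.11, *Bmp2* at 1.99, *Wnt4* at 1.32 and *Rspo1* at -1.43. That scaling also turned the split of all calls from 3213 higher and 1470 lower in females to 2106 and 2234. In the WNT list 7 genes were higher in females and 1 in males of 21 tested, with a median of 0.53. Those higher in females were *Znrf3*, *Fzd1*, *Lrp6*, *Axin2*, *Nkd1*, *Wnt2b* and *Porcn*, and the gene higher in males was *Wnt6*. In the activin and BMP list 11 of 22 were higher in females and 4 in males, with a median of 0.99. They included *Id1* (421 to 506 TPM in females, 18.1 to 19.5 TPM in males) and *Id3* (679.8 to 776 and 149.7 to 156 TPM), which encode inhibitors of DNA binding induced by BMP signals. The ligand *Bmp4* was higher in males, at 25.7 to 29.0 TPM against 4.04 to 5.41 TPM. The Iroquois relatives *Irx5* (2.15) and *Irx2* (1.75) were also higher in females on the log2 scale. Somatic markers differed with sex: 7 of 12 Sertoli genes and 4 of 5 fetal Leydig genes tested were higher in males, and the Leydig genes summed to 32.8 to 49.1 TPM in males and 1.02 to 2.27 TPM in females. Their part in the member differences was not tested.

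Members were called in 1 of the 6 IUHG comparisons, that of E13.5M PGCs, where *Rspo1* fell and *Irx3* rose. These 2 of 6 members tested were DEGs, against 3.92% of all 14473 genes. An unadjusted p under 0.05 was found for 4 of the 6, against 43.9% of all genes. The mean of 1 TPM needed for a test was reached only in IUHG by *Irx3* (0.222 TPM in control, 2.00 TPM in IUHG) and *Lhx2* (0.697 and 1.45 TPM). Both were therefore tested only because they were higher in IUHG, and counts out of these 6 are descriptive. *Rspo1* went from 11.6, 15.7 and 14.4 TPM in control to 5.31, 5.98 and 4.11 TPM in IUHG, at a mean depth of 45.0 to 56.6 and 14.8 to 23.6 reads per base. No IUHG library reached a control, and the log2 fold change was -1.28 ± 0.147 (SE, interval -1.61 to -0.96, adjusted p = 2.0e-04, limma). *Irx3* went from 0.261, 0.217 and 0.190 TPM to 2.45, 1.77 and 1.78 TPM, a log2 fold change of 1.29 ± 0.171 (interval 0.91 to 1.67, adjusted p = 4.6e-04, limma). The control level of *Irx3* rested on only 0.639 to 1.01 reads per base, against 6.42 to 7.52 in IUHG.

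Beside control females, IUHG males lay at the level of females for *Rspo1* (4.00 to 7.29 TPM in females) and between the sexes for *Irx3* (4.27 to 6.38 TPM in females). The male controls are shared by both comparisons. Both calls held in each of the 6 fits that left out 1 library, with *Rspo1* from -1.40 to -1.16 and *Irx3* from 1.18 to 1.34. Both were lost at an adjusted p under 0.01 in one fit over all PGC libraries (adjusted p = 0.0526 for *Rspo1* and 0.0349 for *Irx3*, limma), and *Irx3* was under the fold threshold on FPKM (0.85). *Irx3* depends on the pseudocount in size, at 2.69 with a pseudocount of 0.1.

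*Lhx2* moved in the same direction as *Irx3*, from 0.610, 0.736 and 0.744 TPM to 1.53, 1.73 and 1.10 TPM without overlap (log2 fold change 0.52, adjusted p = 0.0402, limma), under the thresholds of a DEG. It made 3 of 6 members with an adjusted p under 0.05, against 33.3% of all genes. *Wt1* was at 2.13, 2.42 and 2.51 TPM in control and 1.17, 1.80 and 1.64 TPM in IUHG (-0.41, adjusted p = 0.0720, limma). *Fst* (-0.32, adjusted p = 0.220) and *Gata4* (-0.06, adjusted p = 0.861, limma) overlapped between groups. Of the 6 members tested, 4 did not overlap, 2 in each direction, where 47.1% of all genes did not. *Foxl2*, *Wnt4*, *Runx1* and *Bmp2* were under a mean of 1 TPM in both groups, from 0.0534 TPM for *Runx1* in IUHG to 0.672 TPM for *Wnt4* in IUHG, and were not tested.

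Fetal Leydig genes fell with *Rspo1* in E13.5M PGCs. The 5 genes summed to 32.8 to 49.1 TPM in control and 0.857 to 4.93 TPM in IUHG, and 4 of the 5 were called, among them the hormone gene *Insl3* (-3.92, 0 in 2 of the 3 IUHG libraries) and the steroid enzyme gene *Cyp17a1* (-2.82). The interstitial genes summed to 8.21 to 8.88 and 3.17 to 4.29 TPM, none of 3 tested being called. The Sertoli genes summed to 248 to 249 TPM in control and 246 to 297 TPM in IUHG, with 0 of 11 called. Their most abundant gene, *Dmrt1*, was at 101 to 111 and 98.7 to 105 TPM. Also lower in IUHG were the sums of coelomic epithelium (19.1 to 25.0 and 12.4 to 14.5 TPM), Y-linked (151 to 183 and 116 to 119.6 TPM) and pan-germ genes (8963 to 9651 and 7875 to 8182 TPM). The blood and macrophage genes summed to 76.4, 2.28 and 2.48 TPM in control and 0.968 to 1.58 TPM in IUHG. The high value was that of control library 1 alone. The endothelial sum was higher (48.7 to 54.3 and 77.0 to 87.4 TPM). Most of it was *Pecam1*, at 46.2 to 52.1 and 73.0 to 83.4 TPM, and 4 of the 6 endothelial genes had a mean under 1 TPM. Whether *Pecam1* and *Dmrt1* transcripts came from germ cells or from carried-over somatic cells was not tested. The part of all these lists in the fall of *Rspo1* was not tested. In the pathway lists *Porcn* rose from 5.35 to 8.02 TPM in controls to 32.0 to 34.9 TPM in IUHG (2.16, adjusted p = 2.8e-06, limma). *Id1* rose from 18.1 to 19.5 TPM to 61.5 to 64.4 TPM (1.69), *Id2* by 1.49, and *Id3* missed the fold threshold at 0.98. *Nr0b1*, which encodes the nuclear receptor DAX1, rose by 1.13. The Iroquois gene *Irx5* reached 0.91 (0.106 to 0.308 TPM in control and 0.874 to 2.03 TPM in IUHG), under the fold threshold. One of 17 WNT genes tested, 1 of 15 supporting genes and 2 of 19 activin and BMP genes were called, all higher, with medians of 0.14, -0.14 and 0.23 against -0.02 over all genes.

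**Figure D4:**
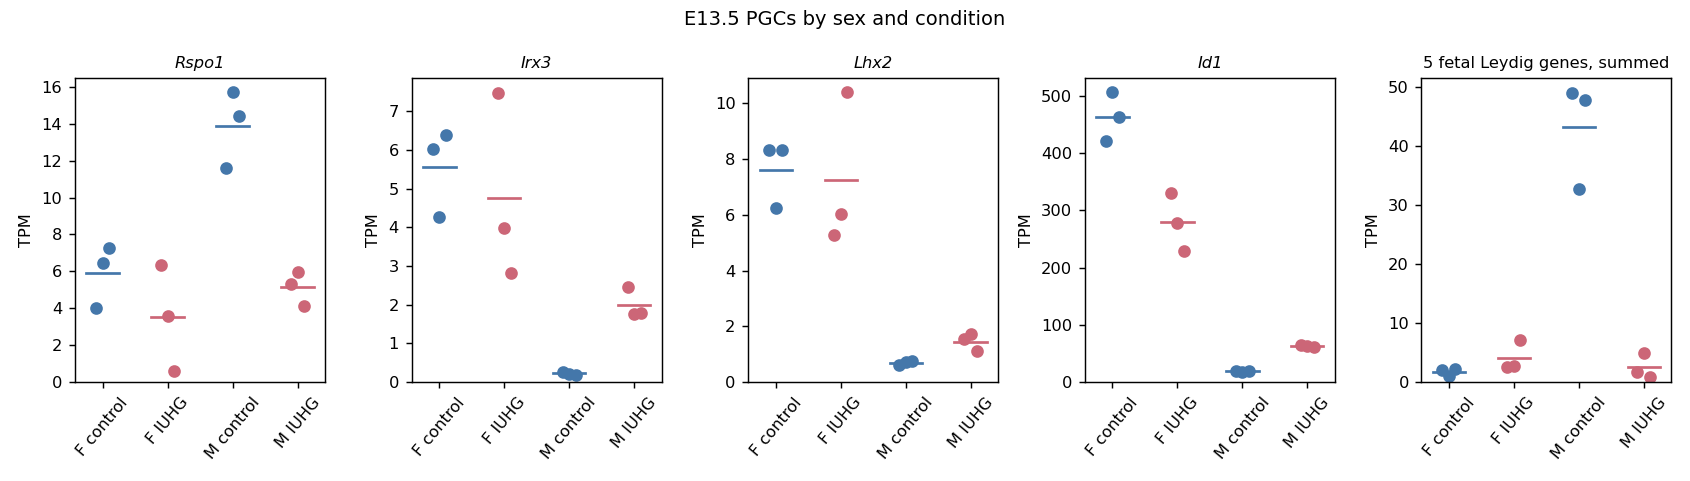
TPM of *Rspo1*, *Irx3*, *Lhx2*, *Id1* and the sum of 5 fetal Leydig genes in the E13.5 PGC libraries by sex and condition (linear axes), each point a library and bars the group means. In males *Rspo1* and the Leydig sum are lower and *Irx3*, *Lhx2* and *Id1* higher in IUHG without overlap, and the male IUHG levels of *Irx3* (1.77 to 2.45 TPM) stay below the control females (4.27 to 6.38 TPM).

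In E13.5F PGCs no member was called of 7 tested, where limma called 0.514% of all genes, and 1 had an unadjusted p under 0.05, against 23.4% of all genes. *Bmp2* went from 4.97, 5.26 and 4.27 TPM in control to 2.75, 2.20 and 2.87 TPM in IUHG, with no overlap but no call (log2 fold change -0.69, adjusted p = 0.196, limma). *Wnt4* went from 3.49, 3.81 and 3.21 TPM to 2.11, 1.73 and 2.50 TPM, also without overlap (-0.54, adjusted p = 0.301, limma). These were 2 of 7 members without overlap, where 33.0% of all genes did not overlap. The median gene was 0.14 higher in IUHG on TPM and 0.00 under median-of-ratios scaling, where *Bmp2* was at -0.82 and *Wnt4* at -0.66. *Rspo1* spread widely in IUHG, at 6.34, 3.60 and 0.597 TPM against 4.00, 6.45 and 7.29 TPM in control (-0.84, interval -2.02 to 0.34, adjusted p = 0.349, limma). *Irx3* (-0.25), *Lhx2* (-0.11), *Fst* (0.21) and *Wt1* (0.44) had overlapping groups and adjusted p-values from 0.526 to 0.850 by limma. *Foxl2*, *Runx1* and *Gata4* were too low to be tested, with *Foxl2* at 0.0935, 0.490 and 0.494 TPM in control and 0.614, 0.0159 and 0.127 TPM in IUHG. In the pathway lists no gene was called. *Porcn* was at 80.4 to 99.3 TPM in control and 168 to 235 TPM in IUHG, and *Id1* at 421 to 506 and 229 to 330.2 TPM. Other markers moved in these libraries. The interstitial genes summed to 11.3 to 17.4 TPM in control and 7.08 to 10.9 TPM in IUHG, with *Dcn* at -1.62 (adjusted p = 0.0670, limma) and 0 of 3 called. Higher sums in IUHG without overlap were those of the Sertoli genes (139 to 146 and 183 to 233 TPM), the fetal Leydig genes (1.02 to 2.27 and 2.52 to 7.16 TPM), the mesonephros genes (3.61 to 7.51 and 7.70 to 10.9 TPM), the endothelial genes (60.1 to 81.8 and 96.4 to 230.2 TPM) and the pan-germ genes (5257 to 5516 and 5892 to 6746 TPM). In the Sertoli list the most abundant gene, *Dmrt1*, was at 87.4 to 98.9 TPM in control and 130.4 to 196 TPM in IUHG. *Sox9*, *Amh* and *Cst9* were at 0 in all IUHG libraries, and the median log2 fold change of the list was -0.16. *Pecam1* of the endothelial list went from 50.4 to 69.1 TPM to 88.4 to 208 TPM. *Lhx1* of the mesonephros list went from 2.76 to 5.36 TPM to 5.67 to 8.05 TPM. These 3 sums lay mostly in *Dmrt1*, *Pecam1* and *Lhx1*. Whether the transcripts of these genes came from germ cells or from carried-over somatic cells was not tested. The part of all these lists in the member levels was not tested.

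Whether the response differed between the sexes at E13.5 was tested as the interaction, the IUHG log2 fold change in females minus that in males. None of the 8 members tested was called at an adjusted p under 0.01, where limma called 3.20% of 17389 genes, and 3 had an unadjusted p under 0.05, against 27.9% of all genes. Those 3 were *Irx3*, at -1.54 (interval -2.39 to -0.69, adjusted p = 0.0281), *Bmp2* at -0.84 (adjusted p = 0.0922) and *Wnt4* at -0.63 (adjusted p = 0.162, limma). *Wt1* was at 0.85 (interval -0.10 to 1.80, adjusted p = 0.225, limma). *Irx3* passed with a pseudocount of 0.1 (-3.00, adjusted p = 0.00487) and without IUHG female 1 (-1.86, adjusted p = 0.00481, limma). For *Rspo1* the interaction was 0.45 (interval -0.86 to 1.75, adjusted p = 0.654, limma), so a difference between the sexes in the fall of *Rspo1* was not detectable in these samples. The median gene was at 0.16 on TPM and -0.01 under median-of-ratios scaling.

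**Figure D5:**
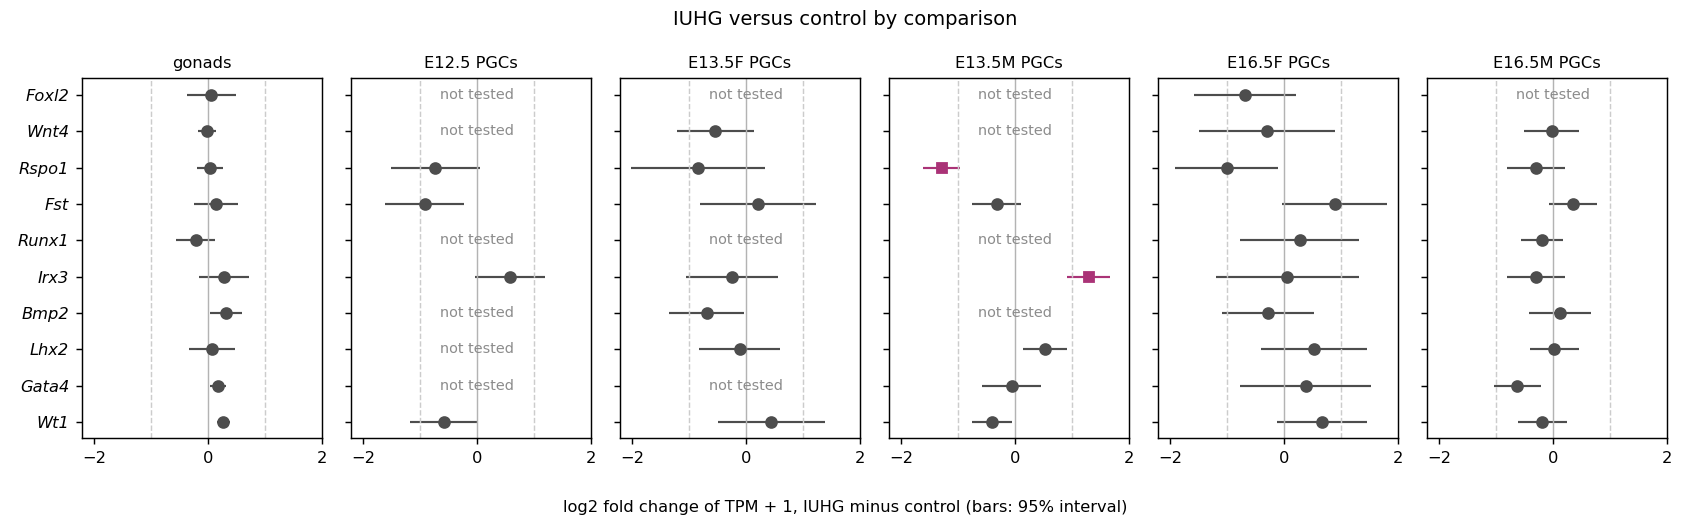
Log2 fold change of TPM + 1 (IUHG minus control) of each member in the 6 comparisons, with limma's 95% intervals, squares for DEGs and dashed lines at -1 and 1. Only *Rspo1* (-1.28) and *Irx3* (1.29) in E13.5M PGCs are DEGs, and the gonad points lie between -0.21 and 0.32.

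At E12.5, before the sexes were separated, 4 members were high enough to be tested and none was called, where limma called 0.247% of all genes, and 1 had an unadjusted p under 0.05, against 15.7% of all genes. *Fst* was at 2.82, 0.980 and 1.79 TPM in control and 0.998, 0.181 and 0.313 TPM in IUHG (-0.92, adjusted p = 0.195, limma). *Rspo1* (-0.73, adjusted p = 0.35) and *Wt1* (-0.58, adjusted p = 0.336) had lower means and *Irx3* (0.58, adjusted p = 0.342, limma) a higher mean in IUHG. All 4 overlapped between the groups, where 22.4% of all genes did not. Each was tested through 1 group only, *Fst*, *Rspo1* and *Wt1* reaching a mean of 1 TPM in control and *Irx3* in IUHG. The Y-linked genes summed to 194 to 212 TPM in control and 129.6 to 154 TPM in IUHG. The interstitial and coelomic epithelium sums were lower as well, the interstitial genes at 5.62 to 8.04 and 0.715 to 1.40 TPM, with *Dcn* at -1.74 (adjusted p = 0.0175, limma) and 0 of 2 called, and the coelomic epithelium genes at 10.2 to 12.9 and 6.75 to 6.84 TPM, with 0 of 3 called. The pan-germ sum was 7785 to 8427 TPM in control and 6881 to 7678 TPM in IUHG, and the endothelial sum was higher, at 129 to 139 and 155 to 171 TPM. Most of the endothelial sum was *Pecam1*, at 122 to 132 TPM in control and 146 to 164 TPM in IUHG. Whether *Pecam1* transcripts came from germ cells or from carried-over somatic cells was not tested. The part of these lists in the member levels was not tested. *Porcn* rose by 1.45 (adjusted p = 8.9e-04, limma), from 23.4 to 26.2 TPM up to 59.1 to 76.7 TPM.

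In E16.5F PGCs all 10 members were tested and none was called, where limma called 0.736% of all genes, and 1 had an unadjusted p under 0.05, against 22.8% of all genes. *Rspo1* was at 10.0, 14.1 and 8.65 TPM in control and 4.27, 2.59 and 9.53 TPM in IUHG, with IUHG library 3 inside the control range (-1.0, interval -1.91 to -0.10, adjusted p = 0.177, limma). *Foxl2* was at 1.45, 1.71 and 2.67 TPM in control and 0.549, 1.33 and 0.623 TPM in IUHG, all below the controls (-0.69, adjusted p = 0.325, limma). Its mean reached the 1 TPM needed for a test in control only. *Fst* was at 3.25, 12.2 and 10.6 TPM in control and 12.3, 17.8 and 15.5 TPM in IUHG, all above (0.89, adjusted p = 0.231, limma). Thus 2 of 10 members did not overlap, where 28.9% of all genes did not. The other 7 ranged from -0.30 for *Wnt4* to 0.66 for *Wt1*. The interstitial genes summed to 23.4 to 67.9 TPM in control and 88.6 to 126 TPM in IUHG, with none of 7 tested called, the pan-germ genes to 3065 to 3369 and 2639.9 to 3009 TPM, and their part in the member levels was not tested. *Gadd45g*, needed for sex determination in the testis, fell by 1.72 (adjusted p = 0.00419, limma).

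In E16.5M PGCs 9 members were tested and none was called, where limma called 0.201% of all genes, and 1 had an unadjusted p under 0.05, against 23.9% of all genes. *Gata4* was at 3.91, 3.94 and 3.25 TPM in control and 1.65, 2.25 and 2.23 TPM in IUHG (-0.63, interval -1.04 to -0.22, adjusted p = 0.0750, limma). It was the only member of the 9 without overlap, where 29.8% of all genes did not overlap. *Rspo1* was at 25.3, 18.3 and 19.7 TPM in control and 20.9, 20.0 and 11.2 TPM in IUHG (-0.30, adjusted p = 0.440, limma). *Runx1* was at 8.38, 7.93 and 6.88 TPM in control and 8.16, 6.23 and 5.67 TPM in IUHG (-0.19, adjusted p = 0.502, limma). The Leydig and Sertoli sums were lower and the interstitial sum higher in the same libraries. The Leydig genes summed to 42.4 to 188 TPM in control and 12.2 to 33.9 TPM in IUHG with none called, the Sertoli genes to 241 to 264 and 162 to 183 TPM, and *Cst9* of the Sertoli list fell by 1.88. The interstitial genes summed to 23.1 to 41.5 TPM in control and 42.9 to 45.9 TPM in IUHG, with *Dcn* at 0.89 (adjusted p = 0.118, limma) and 0 of 5 called. The endothelial genes summed to 29.2 to 30.8 and 23.8 to 25.5 TPM, and the Y-linked genes to 78.1 to 98.8 and 116 to 123 TPM. Their part in the *Gata4* level was not tested.

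Across the 30 PGC libraries, members were described by their likeness, as Pearson r on log2(TPM + 1). The libraries share stages and sexes, so no p is given. The closest members were *Bmp2* and *Lhx2* (0.828), *Wnt4* and *Bmp2* (0.812) and *Fst* and *Wt1* (0.811). Of 25182 genes considered, *Foxl2* was most like *Zmynd12* (0.931), *Gm11815* (0.913) and *Lhx8* (0.910), an oocyte factor. *Wnt4* was most like *Fndc5* (0.938), *Nsmf* and *Tap1*, *Bmp2* most like *Paqr9* (0.951), *Hmgn3* and *Pnck*, and *Lhx2* most like *Rhbdl3* (0.942), *Usp40* and *Rusc1*. For *Rspo1* they were *Bin2* (0.890), *0610010K14Rik* and *Adad2*, and for *Irx3* *Gpr62* (0.922), *Chadl* and *Six5*. *Fst* was closest to *Myo7a* (0.934), *Col1a1* and *Klhdc8b*, *Runx1* to *Plxna4* (0.972), *Jakmip2* and *Lrp1*, *Gata4* to *Bcar1* (0.856), *Irs2* and *Gm57317*, and *Wt1* to *Dhx57* (0.920), *5430405H02Rik* and *E130102H24Rik*.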

How the data were processed

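The members and gene lists were chosen with earlier results of these data known. As deposited, each library had one StringTie gene table, made by the authors from trimmed reads, with HISAT2 as the aligner of the gonads and STAR of the PGCs. The submitters' processing notes also name FastQC, Trim Galore, featureCounts and mm39. TPM and FPKM were scaled by the authors for transcript length and library size, and coverage, the depth per base, was deposited unscaled. Read counts were not used here, so the authors' DESeq2 test on counts was not run, and counting error per gene is unknown. Methods name mm9 for gonads, but 47.5% of gonad genes share a start or end with GRCm38 and 1.64% with mm9. Intervals cover the spread between samples.

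Coverage over FPKM gave the aligned bases. TPM was summed per gene, and genes with a mean of at least 1 TPM in a compared group were tested as log2(TPM + 1) with limma 3.58.1 in R 4.3.3 (trend, two-sided, Benjamini-Hochberg), fitting only the groups compared, with no covariate. Thresholds for DEGs were an adjusted p of 0.05 in gonads and 0.01 in PGCs and between sexes, with an absolute log2 fold change of 1. The methods do not say whether the p for PGCs was adjusted. Interactions were called at an adjusted p under 0.01. The text names all members, genes called in 9 marker lists and 3 pathway lists, list genes of highest TPM where useful, and the 3 genes most like each member. It also names *Id3*, *Irx5*, *Bmp4*, *Amh*, *Dcn*, *Pou5f1* and *Hbb-y*, chosen after their values were seen. Tests were repeated without each library in turn, on FPKM, with median-of-ratios scaling, a replicate block, a pseudocount of 0.1, another threshold, no filter, and one fit over all PGC libraries. Scripts were tested on simulated data. Other steps used pandas 2.3.3, numpy 2.4.6 and matplotlib 3.10.9 in Python 3.11.15.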

Additional observations from a re-analysis of the deposited data

Results flagged for a closer look

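For 3 members, IUHG and control values did not overlap in gonads and in a PGC group, in opposite directions. Of all genes, 25.8% did not overlap in gonads, 33.0% in E13.5F, 47.1% in E13.5M and 29.8% in E16.5M PGCs. The share of all genes apart in both, in opposite directions, was not counted. *Bmp2* was higher in IUHG gonads and lower in IUHG E13.5F PGCs, and its log2 fold changes were 1.01 apart. *Gata4* was higher in IUHG gonads and lower in IUHG E16.5M PGCs, 0.80 apart. *Wt1* was higher in IUHG gonads and lower in IUHG E13.5M PGCs, 0.68 apart. In each case the difference was not tested, since the gonad and PGC tables were normalized separately, and none of these 6 results was a DEG.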

How the results depend on the processing

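Counts of members called did not move in the E12.5, E13.5F, E16.5F and E16.5M comparisons. With an adjusted p under 0.05 and no fold threshold, 1 gonad member passed (*Wt1*), as did 1 in the sex by IUHG interaction (*Irx3*). In E13.5M PGCs the count of 2 went to 1 on FPKM and to 0 in one fit over all PGC libraries. Between sexes it was 4 to 6. The interaction count of 0 went to 1 with a pseudocount of 0.1 and was 0 to 1 when each library was left out. With the replicate number as a block, the counts were 2 in E13.5M PGCs, 5 between sexes and 0 elsewhere, so the block changed no call. No group pair had same-numbered samples that all correlated above 0.1. The correlations were -0.065 to 0.0493 in gonads. In E13.5M PGCs they were 0.0201 to 0.0998, and all 3 samples correlated best with their own number. With 3 samples per group, this check cannot settle whether same-numbered samples share more than a number.

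Over all genes, median-of-ratios scaling moved the calls in E13.5F PGCs from 85 to 147. Of 62 member log2 fold changes, 44 kept their sign in all alternatives. The other 18 were at most 0.45 in size. *Lhx2* in E16.5M PGCs went to -0.02 on FPKM and -0.02 with median-of-ratios scaling. Leaving out 1 library gave, in gonads, *Foxl2* -0.19 to 0.23, *Wnt4* -0.08 to 0.05, *Rspo1* -0.09 to 0.12, *Fst* -0.08 to 0.28 and *Lhx2* -0.07 to 0.16. It gave *Fst* -0.31 to 0.53, *Irx3* -0.57 to 0.00 and *Lhx2* -0.37 to 0.06 in E13.5F, and *Gata4* -0.21 to 0.22 in E13.5M. In E16.5F the ranges were *Wnt4* -0.77 to 0.17, *Runx1* -0.07 to 0.68, *Irx3* -0.41 to 0.68 and *Gata4* -0.12 to 0.89, and in E16.5M *Wnt4* -0.19 to 0.11, *Bmp2* -0.08 to 0.26 and *Lhx2* -0.14 to 0.13. In the interaction they were *Rspo1* -0.03 to 1.07 and *Gata4* -0.36 to 0.11. The cause was not tested. With 3 samples per group and no counts, levels under 1 TPM are the least certain.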

Other observations

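Germ cell genes of the pan-germ list were called in the PGCs. *Mael*, which acts in piRNA silencing of transposons, fell in IUHG E13.5F PGCs from 491 to 540.4 TPM down to 239 to 259 TPM (log2 fold change -1.06, adjusted p = 0.00930, limma). *Tdrd1*, another piRNA pathway gene, fell by 1.48 in E13.5M and by 1.24 in E16.5F PGCs. In E16.5F PGCs *Dppa3*, a maternal factor gene, fell from 184 to 253 TPM to 2.53 to 14.5 TPM (-4.72), and the receptor gene *Kit* from 45.1 to 53.2 TPM to 7.91 to 19.2 TPM (-1.82). No gene of the Y-linked, interstitial, coelomic epithelium, mesonephros or endothelial lists was called by limma in any of the 6 IUHG comparisons.

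The WNT target genes *Axin2* and *Nkd1* were followed after their values were seen. *Axin2* was at 50.3 to 73.9 TPM in control gonads, 2.91 to 4.23 TPM in control E13.5F PGCs and 0.904 to 1.39 TPM in control E13.5M PGCs, with no IUHG call (adjusted p from 0.0977 to 0.905 over the 5 comparisons that tested it, limma). *Nkd1* was at 4.77, 5.10 and 8.16 TPM in control and 9.19 to 10.2 TPM in IUHG E13.5M PGCs (0.62, adjusted p = 0.0194, limma), and at 35.7 to 43.6 TPM in control and 19.2 to 28.9 TPM in IUHG E13.5F PGCs (-0.72, adjusted p = 0.115, limma). Outside E13.5M PGCs, *Id1* was not called and went in both directions. It was at 0.96 in E12.5 (adjusted p = 0.0167) and -0.74 in E13.5F PGCs (adjusted p = 0.0628, limma). At E16.5 it was at -0.76 in females (adjusted p = 0.00394) and -0.79 in males (adjusted p = 0.0108, limma).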
